A study of Homo sapiens with 6 samples.

Results

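MYH9 and 9 other genes of the actin cytoskeleton (MYH10, MYL9, TPM1, ACTN1, ACTN4, VCL, ACTA2, TAGLN and CALD1) were followed through a map of open chromatin in wild-type hTERT-RPE1 cells, 10 of 19974 protein-coding genes. hTERT-RPE1 is a human retinal pigment epithelial line immortalised with telomerase. All libraries are labelled wild type, so there is no treated or mutant group. Accessible DNA was tagged with the Tn5 transposase (ATAC-seq) in 6 libraries, 3 titled R1 and 3 titled R2, with no label on how R1 and R2 differ. Each set has a single merged list, and whether reads or peaks were merged is not stated in the labels, which leaves no spread between libraries and no test.

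The window of a gene was its RefSeq interval with 50 kb on both sides. A shared region is a joined R1 and R2 peak that overlap by at least 1 bp. The 10 windows held 222 of the 122421 shared regions on chromosomes 1 to 22 and X. The genes were chosen by the number of regions in the MYH9 window in these same data and by their place in the actin cytoskeleton, so the counts of regions are a description and support nothing. Coordinates are on hg38.

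Non-muscle myosin II is the motor that slides actin filaments past each other in stress fibres, in the cleavage furrow and in the circumferential belt under the junctions of epithelia such as the pigment epithelium. MYH9 and MYH10 encode its IIA and IIB heavy chains, and MYL9 encodes a regulatory light chain whose phosphorylation switches the motor on. TPM1 (tropomyosin) and CALD1 (caldesmon) encode proteins that line the filament and gate the motor, ACTN1 and ACTN4 the alpha-actinins that cross-link filaments, and VCL vinculin, which ties them to adhesions. ACTA2 (smooth muscle alpha-actin) and TAGLN (transgelin) are used as marks of contractile cells, and the factor SRF, which binds the CArG box, is known to drive many genes of this group.

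All 10 genes had a shared region within 1000 bp of a gene start, against 73.0% of all protein-coding genes (either end where no start is listed). The 8 genes with a start listed in the RefSeq promoter set used here all had one there, against 74.4% of the protein-coding genes with a listed start. Any 1 start sufficed, so a gene with more starts had more chances. The 8 genes have 16 listed starts, and the 15812 protein-coding genes with a listed start have 22132. For MYL9 and TAGLN, which have none listed in that set, either end of the interval took its place, so 1 of the 2 ends is not a start. The number of sequenced fragments or reads stacked over the summit of a peak (the pileup, called fragments here since the sources do not say which) was recovered from its deposited fold and p-value and had a median of 72 in each list. The highest values were at VCL, with 548 fragments in R1 and 555 in R2, and at the inner of the 2 listed starts of ACTA2, with 532 and 561. Both genes lie on chromosome 10, and pileups were not corrected for DNA copy number, whose part in this order was not tested. At the outer ACTA2 start, which shares its region with FAS, the pileup was 472 and 468. A single region of 3026 bp, joined from 2 R1 peaks and 1 R2 peak, covered 3 listed starts of ACTN1. It had 443 fragments in R1 and 426 in R2, at summits upstream of the outermost of the 3. The starts of MYH9, MYH10 and TPM1 lay lower, with 307 and 291, 320 and 262, and 294 and 321 fragments in R1 and R2. In the regions at the 2 starts of ACTN4 the values were 239 and 258 at the outer and 366 and 321 at the inner one. The R1 and R2 summits of the inner region lay 1692 bp apart. MYL9 had 271 and 289 fragments at the lower end of its interval and 80 and 83 near the upper end. TAGLN had 354 and 301 at the lower end and 83 and 87 near the upper end.

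CALD1 has 4 listed starts, and they differed widely. The region at the start at position 134779634 had 337 fragments in R1 and 354 in R2, and that at 134891458 had 259 and 275. The region at 134711499, the outermost start, had only 20 in each list, at percentiles 1.87 and 1.72 of all peaks by pileup. The start at 134745467 had no shared region within 1000 bp. The same held for 1 of the 4 starts of ACTN1, at position 68937951. Each of the 10 genes thus had a start region well above the median pileup of 72, but not each start of a gene did. Of all protein-coding genes, 65.7% had a shared start region formed from peaks with at least the median pileup. Over all shared regions the median pileup was 86 in R1 and 80 in R2.

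**Figure D1:**
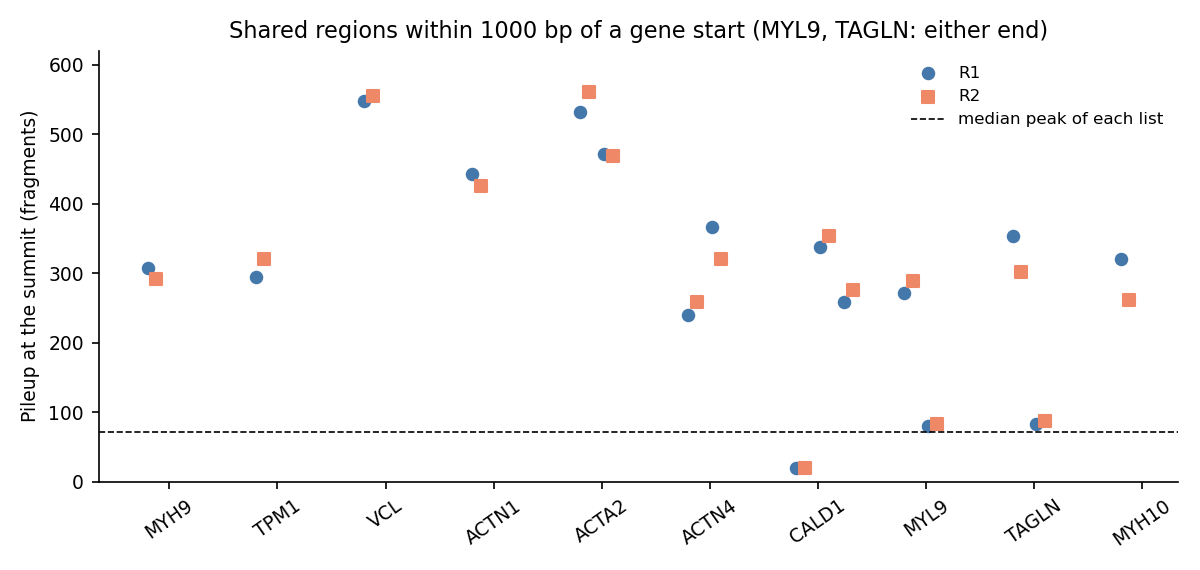
Pileup at the summit (fragments, vertical axis) of the shared region nearest to each gene start within 1000 bp, for the 10 genes in the order of their regions per kb (circles R1, squares R2, dashed line the median peak of each list, 72). Each region is drawn once, and all but the outermost start of CALD1 (20 fragments in both lists) lie above the line.

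In MYH9, MYH10, ACTN1, ACTN4 and VCL the summits lay upstream of the outermost listed start, and at the ACTA2 starts and both CALD1 starts with high pileups they lay downstream of the start. The only listed start of TPM1 (63048489) lies inside its interval, which begins at 63042747, and so do the summits just upstream of that start. A separate region over the upstream end of TPM1 (63042168 to 63043370) had a higher pileup than the one at the listed start, 370 fragments in R1 and 342 in R2. Counted from the start, with negative numbers before it, they were at -387 bp for MYH9 in both lists, at -417 and -418 bp for VCL, at -167 bp for the outer ACTN4 start in both lists, and at -370 and -319 bp for TPM1. The summits of MYH10 lay at -134 bp in R1 and -564 bp in R2. At the inner ACTA2 start the summit lay at 899 bp in both lists and at the outer one at 644 and 724 bp. At the CALD1 start at 134779634 it lay at 117 and 109 bp.

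The bases before 6 of these starts are shown because shared regions cover all 250 of them and because they hold the short words that the text turns to next. They are RefSeq sequences of GRCh38.p14, written 5′ to 3′ on the strand of the gene. They cover chr22:36387968-36388217 (minus strand) for MYH9, chr17:8630726-8630975 (minus) for MYH10, chr10:73997866-73998115 (plus) for VCL, chr14:68977567-68977816 (minus) for ACTN1, chr10:88952774-88953023 (minus) for ACTA2 and chr7:134779384-134779633 (plus) for CALD1. Capitals mark the TEAD word GGAATG on either strand, the CArG box, and CArG boxes with 1 G or C among the A/T letters of their core.
MYH9: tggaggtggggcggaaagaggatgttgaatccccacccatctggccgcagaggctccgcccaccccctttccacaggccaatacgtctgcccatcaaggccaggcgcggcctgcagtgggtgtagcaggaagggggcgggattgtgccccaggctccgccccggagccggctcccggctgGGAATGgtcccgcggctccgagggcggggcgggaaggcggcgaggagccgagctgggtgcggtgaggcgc
MYH10: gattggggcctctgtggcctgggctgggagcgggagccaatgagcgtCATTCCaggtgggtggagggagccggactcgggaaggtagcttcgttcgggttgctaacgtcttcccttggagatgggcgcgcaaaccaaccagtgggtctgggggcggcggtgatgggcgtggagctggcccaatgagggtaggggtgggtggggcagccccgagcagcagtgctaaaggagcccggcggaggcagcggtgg
VCL: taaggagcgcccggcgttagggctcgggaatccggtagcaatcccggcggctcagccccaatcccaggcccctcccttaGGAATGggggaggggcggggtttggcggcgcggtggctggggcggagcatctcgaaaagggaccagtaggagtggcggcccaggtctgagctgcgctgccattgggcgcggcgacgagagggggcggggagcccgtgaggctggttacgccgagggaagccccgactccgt
ACTN1: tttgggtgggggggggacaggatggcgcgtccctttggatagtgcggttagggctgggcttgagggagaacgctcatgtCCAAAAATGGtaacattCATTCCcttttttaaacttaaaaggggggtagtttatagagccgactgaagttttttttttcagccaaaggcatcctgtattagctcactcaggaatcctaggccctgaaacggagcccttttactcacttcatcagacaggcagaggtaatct
ACTA2: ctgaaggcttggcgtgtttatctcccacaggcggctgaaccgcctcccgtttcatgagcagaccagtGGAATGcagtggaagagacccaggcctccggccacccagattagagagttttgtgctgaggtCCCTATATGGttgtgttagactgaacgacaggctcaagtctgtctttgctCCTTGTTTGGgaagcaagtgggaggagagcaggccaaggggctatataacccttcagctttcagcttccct
CALD1: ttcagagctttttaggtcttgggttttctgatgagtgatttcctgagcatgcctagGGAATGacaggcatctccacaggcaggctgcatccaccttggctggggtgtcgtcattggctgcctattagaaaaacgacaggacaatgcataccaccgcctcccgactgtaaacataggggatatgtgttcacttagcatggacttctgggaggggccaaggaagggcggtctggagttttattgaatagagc

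GGAATG, the core of the sites of the TEAD factors, was found before 7 of the 16 listed starts of 8 genes, against 10.5% of the same 250-base windows of all 22132 listed starts of protein-coding genes. It lay at -70 to -65 in MYH9, -203 to -198 in MYH10, -171 to -166 in VCL, -154 to -149 in ACTN1, -183 to -178 in ACTA2 and -194 to -189 in CALD1. The seventh window was that of the CALD1 start with no shared region. A full CArG box was found in 1 of the 16 windows, against 1.18% of all windows. It lay at -171 to -162 before the innermost of the 3 ACTN1 starts under the wide region. The summits of that region lay at -2141 bp in R1 and -2142 bp in R2 from this start. The pileup given for the region was thus not read at the CArG box or the TEAD word of ACTN1. ACTA2 had a pair of CArG boxes with 1 G or C in the core, at -121 to -112 and at -71 to -62. This looser form was added after the ACTA2 sequence had been seen, and was found in 4 of the 16 windows and in 5.58% of all. The GC box GGGCGG was found in 9 of the 16 windows and in 53.7% of all, with 6 matches before MYH9 and 1 before MYH10. TGANTCA, the AP-1 word, was found in 2 windows and TATAAA in 2, against 5.35% and 9.0% of all. Both strands were searched, GC boxes may overlap each other, and windows of 1 gene are not independent. A match is a run of letters and says nothing of a bound factor.

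MYH9 had 43 R1 and 47 R2 peaks in its window, of which 39 shared regions were formed, 0.189 per kb. The median over all protein-coding genes was 10 shared regions and 0.0676 per kb. By shared regions per kb MYH9 ranked 47 among the 19974 genes, and by their number 178. The rank per kb was 87 with R1 peaks alone and 7 with R2 peaks alone, 262 and 312 at a −log10 q-value of at least 5 and 10, 176 with 10 kb flanks, 18 with 100 kb flanks, 114 with 50% overlap of both peaks and 37 with summits within 150 bp. Within the gene interval alone (chromosome 22, 36281280 to 36387967) it had 25, or 0.234 per kb, the highest of the 6258 genes with intervals of at least 50 kb, whose median was 0.0558. Among all protein-coding genes, short ones included, its rank by interval alone was 1974. Shared regions covered 19.7% of the MYH9 window, against a median of 6.68% over all genes. Of the 39, 34 had MYH9 as their only nearest protein-coding gene. At the far end of the window, 2 regions lay at the starts of APOL1 and APOL2, and the region with the best mean rank by fold was the one at APOL2 (36237702 to 36240269), with folds of 7.04 and 7.21.

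The first 40 kb of MYH9 were the densest. In steps of 20 kb from the start into the gene, regions numbered 6, 7, 4, 3 and 3. The nearest step before the start held 4, the region over the start included, and the next one 5. The median spacing between neighbouring regions was 3995 bp, and the longest stretch of the gene without a shared region was 10.8 kb (36339772 to 36350551). The region with the highest pileup lay 58.73 kb from the start (36328431 to 36330037), with 400 fragments in R1 and 423 in R2, more than the 307 and 291 of the region at the start itself. The region over the start and the next 3 upstream, out to a centre at -18.34 kb, overlap the interval of the non-coding gene MYH9-DT. The gene table gives intervals without exons, so whether a region is exonic or intronic is not given here.

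MYH10, the IIB paralogue, had 11 R1 and 8 R2 peaks and 7 shared regions in a longer window, 0.0273 per kb, and was the only one of the 10 below the median of all genes. A region of 2621 bp covered its start (8629167 to 8631787), and 3 more lay in the first 20 kb. Beyond them 106.9 kb of the gene interval held no shared region (8504369 to 8611271), and 1 of the 2 beyond that stretch (8488529 to 8489584) had the best rank of its window, with folds of 9.58 and 8.93. MYH14, which encodes the third non-muscle heavy chain, had 4 shared regions in its window, 0.0193 per kb, and none at its start. Of the 3 heavy chain genes, MYH9 alone was thus above the median of all genes per kb. The only region in the MYH10 flanks lies at the start of NDEL1, and the other 6 had MYH10 as their only nearest gene.

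The other members lay between these paralogues. TPM1 had 27 R1 peaks, 25 R2 peaks and 23 shared regions, 0.178 per kb, rank 90. VCL had 37, 34 and 30 (0.134 per kb), ACTN1 32, 29 and 26 (0.127), ACTA2 20, 18 and 18 (0.115) and ACTN4 23, 25 and 21 (0.114). CALD1, the longest of the 10 genes at 259.2 kb, had 42 peaks in each list and 37 shared regions (0.103 per kb). MYL9 had 18, 14 and 11 (0.1 per kb) and TAGLN 14, 10 and 10 (0.0924), each in a window made up mostly of its flanks. In all, 9 of the 10 lay above the median of all genes, as 50% of genes do by construction. The order was not the same in both lists. TPM1 was highest in R1, with 0.209 R1 peaks per kb against 0.208 for MYH9, and MYH9 was highest in R2, with 0.227 R2 peaks per kb against 0.194 for TPM1. VCL, MYL9 and ACTN1 had 0.166, 0.164 and 0.156 in R1, and TAGLN, ACTA2, ACTN4 and CALD1 lay between 0.117 and 0.129, with no spread to tell such neighbours apart. MYH10 was lowest in both lists, with 0.0429 in R1 and 0.0312 in R2.

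**Figure D2:**
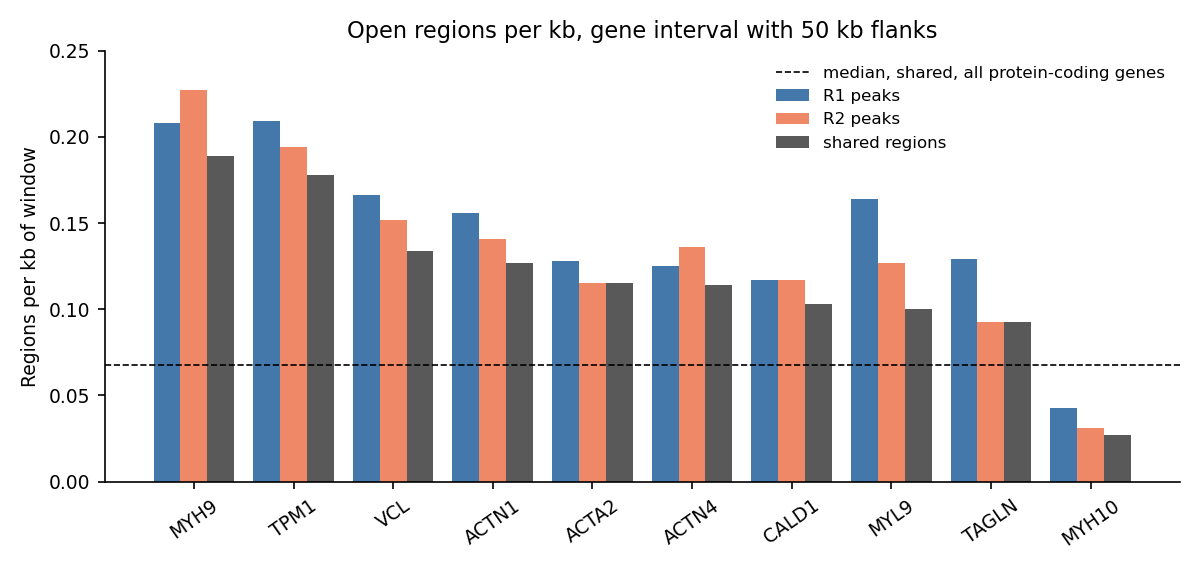
Peaks of R1, peaks of R2 and shared regions per kb of window (vertical axis) for the 10 genes, with a dashed line at 0.0676, the median of shared regions over protein-coding genes. MYH9 (0.189) and TPM1 (0.178) lead and MYH10 (0.0273) alone lies below the line.

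The windows differ in how much of them belongs to neighbours. MYH9, ACTN1 and CALD1 were the only nearest protein-coding gene for 34 of 39, 25 of 26 and 28 of 37 regions, TPM1 for 19 of 23 and VCL for 22 of 30. For ACTN4 it was 12 of 21, for MYL9 5 of 11, for ACTA2 3 of 18, where the interval of FAS overlaps that of the gene, and for TAGLN 1 of 10, with most of the others in PCSK7 or RNF214. Regions within 1000 bp of the starts of other genes, or of either end where no start is listed, numbered 5 in the ACTN4 window. In each of the other windows they numbered at most 2. Those of ACTN4 include regions on both sides of CAPN12 (38729448 to 38729935 and 38745263 to 38745778), so not all 5 need lie at a start. The best-ranked regions by fold were at neighbours in several windows. In that of CALD1 it was the start of AGBL3 (134986159 to 134987303), where the fold was 13.6 in R1 and 14.0 in R2. In that of TPM1 it was the start of LACTB (63121465 to 63122984), with 10.03 and 10.4, and in that of ACTN4 the region at EIF3K and MAP4K1 (38618412 to 38619737), with 10.5 and 9.96. In those of TAGLN and VCL it lay within RNF214 (117238912 to 117240024, folds of 12.3 and 11.3) and AP3M1 (74144859 to 74145656, 10.2 and 11.0). For ACTN1 it lay between genes (68824487 to 68825432, 10.2 and 10.2) and for MYL9 within DLGAP4-AS1 (36556270 to 36557109, 6.78 and 6.0). ACTA2 was the only one whose best-ranked region was at its own start (88951040 to 88953060), with folds of 10.4 and 11.1.

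Regions were spread in different ways along the genes. VCL had 19 in its interval and ACTN1 14, with longest empty stretches of 16.2 kb and 11.9 kb, and ACTN4 had 12 with a longest empty stretch of 14.8 kb. CALD1 had 26, but 57.1 kb of its interval held none (134828700 to 134885839), between the starts at 134779634 and 134891458. ACTA2 had 5 in its interval and 13 in the flanks, or 0.0889 against 0.13 per kb, the only member less dense inside than outside apart from CALD1 (0.1 and 0.11). MYH9 had 0.234 inside and 0.14 outside, TPM1 0.24 and 0.16, VCL 0.154 and 0.11, ACTN4 0.143 and 0.09, and ACTN1 0.133 and 0.12. MYL9 had 3 regions in its 9.9 kb and TAGLN 2 in its 8.2 kb.

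**Figure D3:**
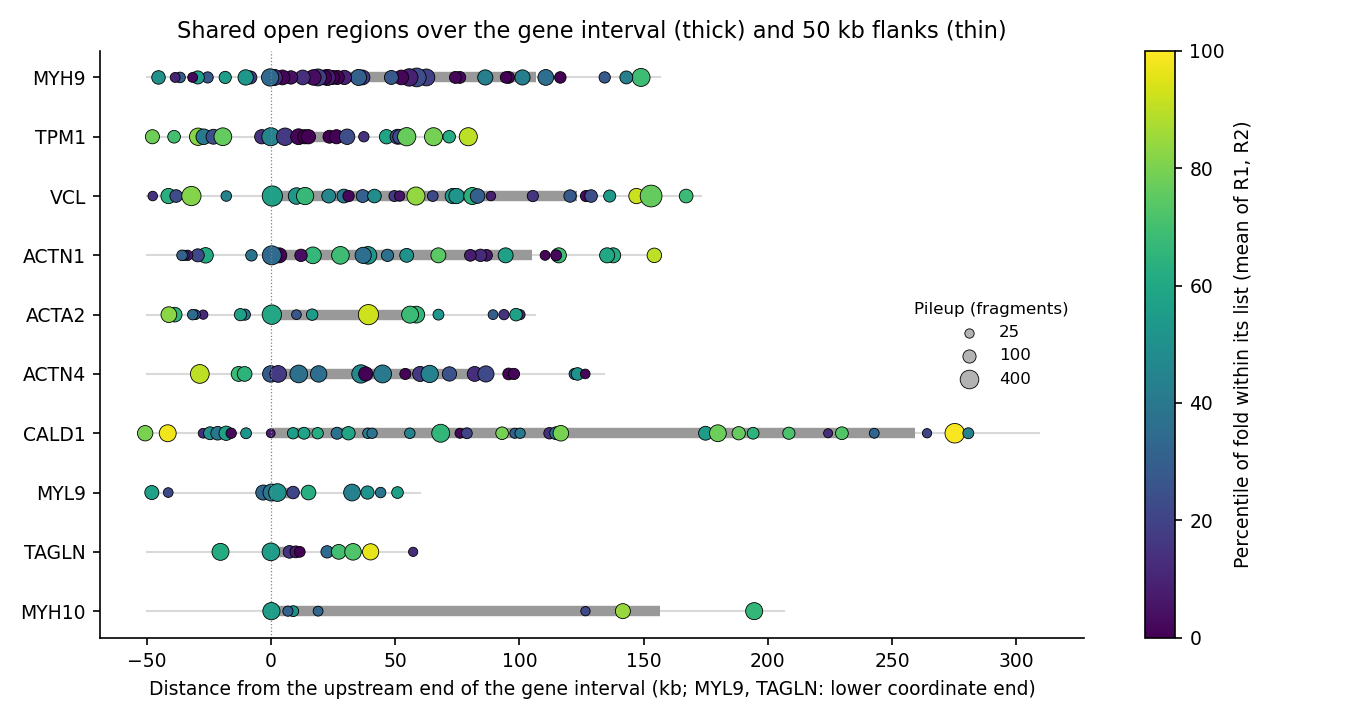
Shared regions (circles) along the 10 genes, by distance from the upstream end of the gene interval (kb, horizontal axis; for MYL9 and TAGLN from the lower coordinate end), with circle size for the pileup and colour for the percentile of fold within its list, both as means of R1 and R2. MYH9 is packed with regions of low fold percentile, and MYH10 has a stretch of 106.9 kb and CALD1 one of 57.1 kb with none.

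Regions in MYH9, TPM1 and ACTN4 combined high pileups with low folds. The fold of a peak is its pileup over a local background, and the background could be recovered in the same way. In the MYH9 interval the median pileup was 162 fragments in R1 and 159 in R2, yet the median fold was only 2.39 and 2.37, at percentiles 8.99 and 7.06 of all peaks. The median background there was 73.9 and 72.4 fragments, against a median of 11.6 and 11.5 over all peaks of the lists. In the TPM1 interval the background was 83.9 and 85.8, the pileup 144 and 134 and the fold 1.9 and 1.61. In its flanks the background was 42.0 and 39.5, the pileup 166 and 162.5 and the fold 5.84 and 6.32. In the ACTN4 interval the background was 71.8 and 66.0, the pileup 243.5 and 243 and the fold 3.07 and 3.49. All 25 regions of the MYH9 interval, all 7 of TPM1 and all 12 of ACTN4 lay below the median fold of both lists, as do 39.6% of all shared regions. Of the same regions 21, 7 and 11 lay above the median pileup of both lists, as do 53.1% of all.

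MYH10 and CALD1 showed the other pattern. In the MYH10 interval the median background was 8.72 in R1 and 8.02 in R2, where the lowest of each list was 7.93 and 7.79. The median pileup was 48.5 and 34 fragments and the median fold 5.15 and 3.98. In the CALD1 interval the background was 10.1 and 9.91, the pileup 65.5 and 57 and the fold 5.03 and 5.22. By fold these regions ranked above those of MYH9, and by pileup below them. ACTN1 and VCL lay between, with backgrounds of 33.6 and 33.4 and of 26 and 27.8. In the MYL9 interval (3 regions) the background was 63.7 and 59.5, the pileup 271 and 289 and the fold 3.93 and 4.36. ACTA2 (5 regions) was high in both measures, with a background of 39.1 and 37.9, a pileup of 290 and 262 and a fold of 6.2 and 5.93. TAGLN (2 regions) had a background of 44.2 and 44.6, a pileup of 218.5 and 194 and a fold of 4.34 and 3.93. Over all 10 windows the median background was 26.5 and 26.1 fragments and the median pileup 121 and 120, against 12.5 and 12.1 and 86 and 80 over the other shared regions. What sets the background was not tested. The relation between fold, pileup and background is inferred from the values.

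**Figure D4:**
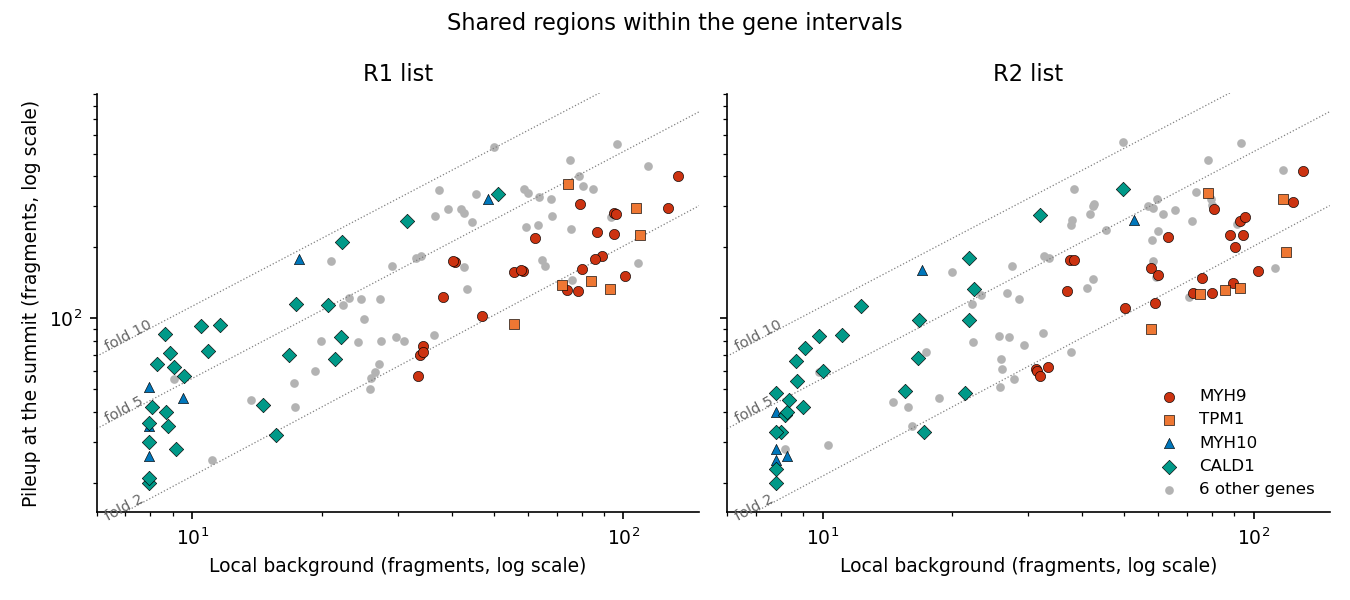
Pileup at the summit (vertical, log scale) against local background (horizontal, log scale), both in fragments, for shared regions within the gene intervals in R1 (left) and R2 (right), with dotted lines of equal fold. MYH9 and TPM1 regions lie at high background (medians of 73.9 and 83.9 in R1) and below the line of fold 5, and most MYH10 and CALD1 regions at low background (medians of 8.72 and 10.1 in R1).

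The choice between fold and pileup decided where MYH9 stood. Among peaks with at least the median fold of their list, the MYH9 window kept 3 shared regions, 0.0145 per kb, and ranked 16384, below the median of 0.035 over all genes. Among peaks with at least the median pileup, a setting added after the data had been seen, it kept 28, 0.135 per kb, and ranked 158, above the median of 0.0377. With the median fold as the limit, 4 members had a shared region at the start (VCL, ACTA2, TAGLN and CALD1), against 56.9% of all genes, and with the median pileup all 10 did, against 65.7%.

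Both lists marked mostly the same regions of these genes. Of the R1 peaks in the 10 windows, 229 of 267 (85.8%, Wilson 95% interval 81.1 to 89.5) overlapped an R2 peak, against 87.3% of all R1 peaks. Of the R2 peaks 227 of 252 did (90.1%, 85.8 to 93.2), against 91.8%. The intervals cover counting error only, and peaks of a window are not independent. MYH9 had 4 peaks found in R1 alone and 6 in R2 alone, MYL9 6 and 3, CALD1 5 and 5 and MYH10 4 and 1, while ACTA2 had 2 and 0. Regions of the 10 windows had a median width of 942 bp, against 834 bp over the other shared regions, and R1 and R2 summits lay a median of 50 bp apart, against 37 bp.

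Among protein-coding genes outside the 10 whose interval length is within 20% of that of MYH9, none of 1415 had more shared regions per kb of window. Their median was 0.0614. MYH9 was chosen by its number of regions in this same window, so its place among them is a description. Genes named as closest had to lie at least 200 kb from MYH9 and from each other. The 3 closest to MYH9 by this measure under that limit were NEURL1 with 34 regions (0.171 per kb), TACC1 with 38 (0.169) and TGFB2 with 32 (0.161). They had 14, 22 and 19 regions in their intervals, against 25 in that of MYH9.

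Other genes of the actin cytoskeleton were set beside the members, in lists drawn up by function with earlier results of these data known. Over all protein-coding genes 73.0% had a shared region at a start, and the median was 0.0676 per kb. Of 13 genes for actin-binding and bundling proteins all 13 had a shared region at the start, against 73.0% of all genes, and their median was 0.139 per kb, above the 0.115 of the members. CNN3, a calponin gene, had 22 regions in its window (0.169 per kb), and TPM2, another tropomyosin gene, 18 (0.167). Of 9 focal adhesion genes all 9 had a start region, against 73.0% of all genes, with a median of 0.103 per kb. TLN1, which encodes talin, had 23 regions (0.17) and TES 24 (0.162). Of 6 genes for actins and other non-muscle myosin II subunits 5 did, all but MYH14, against 73.0% of all genes, with a median of 0.105. ACTG1 and ACTB, the cytoplasmic actin genes, had 16 regions each (0.156 and 0.155).

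All 8 regulators of myosin II had a start region, against 73.0% of all genes, and their median was 0.0721 per kb, against 0.0676 over all genes. MYLK, the myosin light chain kinase gene, had 42 regions (0.112 per kb) and RHOB 11 (0.107), while ROCK1, a kinase gene of the same pathway, had 12 (0.0453). SRF had 11 (0.0998) and the genes of its coactivators, MRTFA and MRTFB, 34 (0.104) and 15 (0.0403), and all 3 had a start region, against 73.0% of all genes. Of 19 genes for muscle isoforms and muscle proteins 12 had a start region, a share near the 73.0% of all genes, with a median of 0.0814 per kb. TNNI3 had 16 regions (0.151), and DES, the desmin gene, also had 16 (0.148) but none at either end. ACTG2, ACTN2, MYH1, MYH2, MYH7 and MYOCD were the others with none at a start, and the windows of MYH1, MYH2 and MYOCD, the gene of the muscle coactivator of SRF, held no shared region.

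**Figure D5:**
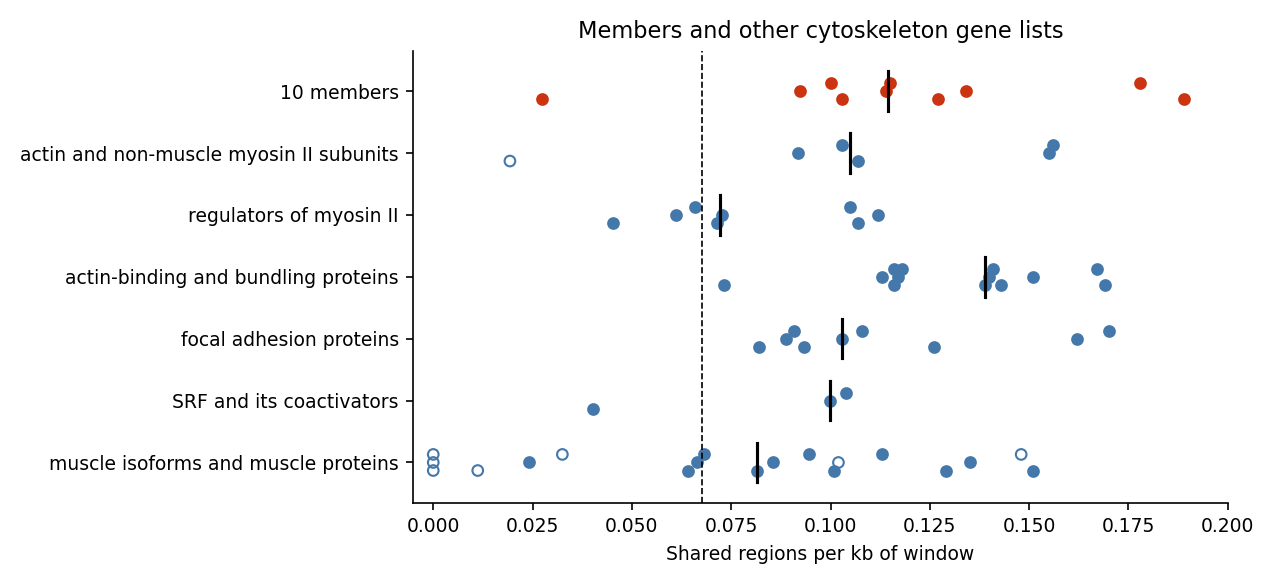
Shared regions per kb of window (horizontal axis) for the 10 members and for 6 other gene lists (1 point per gene, filled where a shared region lies within 1000 bp of a start, open where none does), with the median of each list as a bar and a dashed line at 0.0676, the median over protein-coding genes. Muscle genes spread from 0 to 0.151 and 7 of them are open, while none of the members is; over all genes 73.0% have a start region.

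Markers of the line were read in the same way. Of 10 genes of the pigment epithelium 8 had a shared region at a start (or at an end where none is listed), a share near the 73.0% of all genes, and RPE65 and TYR had none. Of 5 epithelial and mesenchymal genes 4 did, of 4 muscle genes 3, of 3 blood genes 2 and of 3 endothelial genes 0, beside the same 73.0%, so this measure alone does not tell the cell type.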

How the data were processed

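The authors deposited 1 merged peak list for R1 and 1 for R2. The submitters' processing notes name hg38. The sources used here give no aligner, peak caller, settings or Tn5 shift. The deposited columns are the ratio of a peak over its local background (its fold), its p-value and q-value, both as −log10, and the offset of its summit. Folds were used only within a list. A shared region took its values in each list from its peak with the highest fold there.

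The pileup and background were computed here from the deposited fold and −log10 p-value, under the assumption that 1 was added to both before the fold was formed and that the p-value is the upper tail of a Poisson distribution. A whole pileup gave the deposited p-value within 0.001 on the −log10 scale for 100% of peaks. No source states this relation. No depth per library was given in the sources used here.

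Gene intervals are from RefSeq (GRCh38.p14), and starts from its promoter table, which lists at least 1 for 15812 of 19974 protein-coding genes and for 8 of the 10 members. No p-value was computed. The members, lists and rules were chosen with earlier results of these data known. All members are named, with their start regions and the best-ranked region of each window. Named too are the 3 genes most like MYH9 in density within the limits on length and spacing. For the other lists the 2 densest genes and up to 5 without a start region are named. ROCK1, MRTFB, MYH7 and MYOCD were named after their values were seen. On simulated data, the overlap, window and pileup steps made 0 errors. The pileup data were simulated from the relation assumed above, so this checks the computation and not the relation. The joining of overlapping peaks into a region was not simulated. Scripts ran in Python 3.11.15 with scipy 1.17.1, pandas 2.3.3, matplotlib 3.10.9 and numpy 2.4.6.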

Additional observations from a re-analysis of the deposited data

How the results depend on the processing

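No paired analysis was possible because each set was deposited as 1 merged list, so libraries could not be left out or paired either. Alternatives were stricter q-values, limits by fold or pileup, other definitions of sharing, 1 list alone, other flanks, other distances from the start, and regions nearest to a member alone. The 39 shared regions of the MYH9 window became 3 with at least the median fold and 25 without flanks, and lay between 26 and 54 under the others. The 222 regions of the 10 windows became 73 with at least the median fold, 144 with at least the median pileup (added after seeing the data), 119 without flanks and 140 with 10 kb flanks. Members with a shared region at the start fell to 4 with at least the median fold and numbered 8 to 10 otherwise. The share of R1 peaks found in R2, 85.8%, was 90.8% at −log10 q of at least 10, 91.9% with at least the median pileup, 75.7% with 50% overlap of both and 68.2% with summits within 150 bp. Smaller windows and stricter limits hold fewer regions by construction. For the other 9 members, 67 of 108 counts under alternatives stayed within 1.5 times their value, and none of the 9 did with at least the median fold.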
